A study of Mus musculus with 4 samples.

Results

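A total of 496 genes of mouse chromosome 12 lying outside the immunoglobulin heavy chain locus were examined, out of 18314 gene names tested over the whole array. They were chosen by position and by signal: the probe's lower coordinate in the mm8 build lay below 113700000 or above 116500000, and the probe was well above background on all 4 arrays. The brightest such probe stood for each gene name. Chromosome 12 carried 1544 probes with 1015 gene names, of which 944 lay outside the heavy chain window. Fos, Evl, Rcor1, Adcy3, Dnmt3a, Id2, Max, Batf, Nfkbia, Traf3, Akt1, Jag2, Hif1a, Prkch, Rrm2, Sel1l and names starting with Psm, Rps, Rpl, Eif, Dnaj or Hsp were left out, which removed 29 genes well above background on all arrays and left 913 names. Of these, 94 were well above background on 2 or 3 arrays and 323 on fewer than 2, so neither set is among the 496. The signal flags of the same 4 arrays therefore chose the genes, and a gene that was dim throughout one group could not be among them.

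RNA was measured on 4 single-colour Agilent oligonucleotide arrays, 2 with spleen cells selected for B220, a surface marker used to isolate B cells, and 2 with lymphoma lines of B-cell origin, with 1 array for each line. The splenocytes came from female C57BL/6N mice, and both lines were established independently from mice with a dopamine receptor 3 transgene, whose promoter is not given in the sources used here. Lymphoma and normal state, culture and spleen, and the mice of origin all change together between the groups, and these cannot be told apart. Nothing in the labels says that the splenocyte samples came from separate mice, so a p-value here reflects only how far these particular samples scatter, and that scatter may be technical.

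All 8 B cell markers tested, among them Cd79a and Pax5, were well above background on every array. The 75th percentile of the processed signal ran from 514 to 1315 over the arrays, the probes well above background numbered 24974 to 27319, and no spot was saturated. Having only 2 arrays in a group limits how precise any value can be. In bulk RNA, fewer cells of a type and less RNA per cell cannot be told apart.

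Mouse chromosome 12 holds the heavy chain locus near its distal end, where B cells assemble and later switch their antibody genes. The rest of the chromosome is a mixed neighbourhood with no common function: housekeeping enzymes, kinases, zinc finger and chromatin proteins, vesicle traffic proteins, and the imprinted cluster between Dlk1 and Dio3. RNA levels of genes that share a chromosome can be set side by side along its length, which is the form used here.

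Promoter sequences were taken from RefSeq (GRCm38.p6), 250 bases before to 50 after each gene's start, and were found for 332 of the 496 genes. Those printed belong to 5 of the genes with the largest changes described further on: Dglucy, Crip1 and Tmem121 fell, and Adssl1 and Egln3 rose. Capitals mark the GC box GGGCGG, or CCGCCC where it lies on the other strand, a motif bound by Sp1-family factors. Each sequence reads 5′ to 3′ on the gene's own strand.
Dglucy, chr12:100778807-100779106, plus strand: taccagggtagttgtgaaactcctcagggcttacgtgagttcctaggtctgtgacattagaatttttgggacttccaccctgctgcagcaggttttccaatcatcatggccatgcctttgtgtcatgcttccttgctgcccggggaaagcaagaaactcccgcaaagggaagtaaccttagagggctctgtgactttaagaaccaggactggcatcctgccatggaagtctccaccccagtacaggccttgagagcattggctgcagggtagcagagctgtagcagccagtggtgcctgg
Crip1, chr12:113151762-113152061, plus strand: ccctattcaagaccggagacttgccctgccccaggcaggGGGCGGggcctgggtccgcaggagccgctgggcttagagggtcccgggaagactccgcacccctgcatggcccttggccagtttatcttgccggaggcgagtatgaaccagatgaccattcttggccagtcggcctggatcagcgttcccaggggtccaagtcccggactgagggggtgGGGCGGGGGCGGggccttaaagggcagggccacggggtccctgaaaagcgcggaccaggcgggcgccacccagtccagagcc
Tmem121, chr12:113185653-113185952, plus strand: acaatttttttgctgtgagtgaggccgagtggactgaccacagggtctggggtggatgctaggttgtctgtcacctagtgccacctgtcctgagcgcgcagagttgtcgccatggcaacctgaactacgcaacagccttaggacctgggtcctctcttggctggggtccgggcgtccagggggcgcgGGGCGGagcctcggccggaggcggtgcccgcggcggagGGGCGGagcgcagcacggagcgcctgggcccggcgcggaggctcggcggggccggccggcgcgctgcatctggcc
Adssl1, chr12:112619797-112620096, plus strand: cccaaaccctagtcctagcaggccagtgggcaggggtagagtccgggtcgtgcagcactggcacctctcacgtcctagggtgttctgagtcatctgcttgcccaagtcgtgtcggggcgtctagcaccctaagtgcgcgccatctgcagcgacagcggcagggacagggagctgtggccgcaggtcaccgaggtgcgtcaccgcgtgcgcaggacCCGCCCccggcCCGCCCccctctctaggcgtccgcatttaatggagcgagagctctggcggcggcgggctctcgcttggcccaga
Egln3, chr12:54203825-54204124, minus strand: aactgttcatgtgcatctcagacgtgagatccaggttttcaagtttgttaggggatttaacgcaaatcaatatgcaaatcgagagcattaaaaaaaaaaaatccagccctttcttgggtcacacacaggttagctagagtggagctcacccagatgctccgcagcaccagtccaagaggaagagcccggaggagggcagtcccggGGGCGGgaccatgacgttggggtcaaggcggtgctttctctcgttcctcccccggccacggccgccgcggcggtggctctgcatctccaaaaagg

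The GC box occurred in 3 places in the Crip1 promoter, 2 in Tmem121, 2 in Adssl1 and 1 in Egln3, and in none in Dglucy, so promoters with and without it are found among the genes that fell most. Searched on both strands, GGGCGG was present in 63.3% of the 332 promoters, against 35.9% of the 27025 promoters of the whole table, which also holds genes not measured here. It was found in 68.6% of 35 promoters of genes that rose at least 2-fold, in 67.9% of 112 promoters of genes that fell at least 2-fold and in 56.6% of 113 promoters of genes that did not pass the test. The E-box CACGTG was present in 11.4% of the promoters of genes that rose, 17.0% of those that fell and 6.19% of those not called, against 7.24% of all promoters. The CCAAT box was present in 37.0% of the 332 promoters and in 37.9% of all, TATAAA in 6.33% and 14.2%, and the cAMP response element TGACGTCA in 4.22% and 1.88%. None of these motifs contains another. The median number of CpG dinucleotides was 24 in the 332 promoters and 7 over the table. A match is a stretch of letters and not a shown binding site.

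The question was how RNA levels along chromosome 12 differed between each lymphoma line and the splenocytes. Most of these genes that differed were lower in the lines. Of the 496 genes, 258 (52.0%) were called lower and 78 (15.7%) higher in the lines, and 160 were not called, where called means a limma adjusted p under 0.05 over all 18314 genes. Over all genes tested, 32.6% were called lower and 30.6% higher, 63.2% in all. Of the 15241 genes that passed the same signal filter as the 496, wherever they lie, 31.0% were called lower and 31.4% higher, 62.3% in all. At an unadjusted limma p under 0.05 there were 356 of the 496 genes, against 12391 of the 18314 and 10202 of the 15241. These shares at an unadjusted p lie close together, while the shares called lower and the shares called higher do not.

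The typical level of the genes was lower on both line arrays. The median log2 signal, relative to each array's 75th percentile, was 0.05 and −0.02 in splenocyte samples 1 and 2 and −0.65 and −0.72 in lines 1 and 2. The median difference of lines from splenocytes was −0.62 on the log2 scale, with quartiles of −1.52 and 0.25, against −0.05 over all genes tested and −0.0022 over the other 14745 genes well above background. Taken singly, line 1 had a median difference of −0.59 and line 2 of −0.63, both against the same splenocyte mean, so that these values share their controls. The median of line 1 minus line 2 was 0.03, and that of splenocyte sample 1 minus sample 2 was 0.02.

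The groups did not overlap for most genes, on chromosome 12 as over the whole array. Both lines lay below both splenocyte samples for 311 of the 496 genes (62.7%), against 43.8% of all genes tested and 43.1% of the bright ones. Both lay above for 129 genes (26.0%), against 41.2% and 42.5%. That left 56 of the 496 genes with overlap, against 2744 of the 18314 tested and 2201 of the 15241 bright ones. Line 1 was at least 2-fold below the splenocyte mean for 186 genes (37.5%; 26.4% of all genes tested) and at least 2-fold above it for 57 (11.5%; 23.0%). Line 2 was at least 2-fold below for 176 genes (35.5%; 24.8%) and above for 54 (10.9%; 21.6%). The excess of lower genes was present at each level of signal. With the genes parted by mean level into 3 sets of like size, low, middle and high, the median differences were −0.62, −0.65 and −0.59, while other genes within the same limits had −0.25, 0.09 and 0.19. In the high set, 56.4% of the chromosome 12 genes were called lower, against 25.9% of the other genes.

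Where the zero lies depends on the scaling between arrays. With each array centred on its median the median over all genes moved from −0.05 to 0.36. The split of the chromosome 12 genes became 184 lower and 127 higher, so that 40.8% of the called genes were higher in place of 23.2%, and for the other bright genes 67.8% in place of 51.3%. Relative to those other genes the median difference of the 496 genes was −0.62 in both scalings. That sameness holds by construction, since centring shifts the difference of every gene by the same amount. The relative value was −0.71 after quantile normalization and −0.43 after normexp background correction, which could have changed it.

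**Figure D1:**
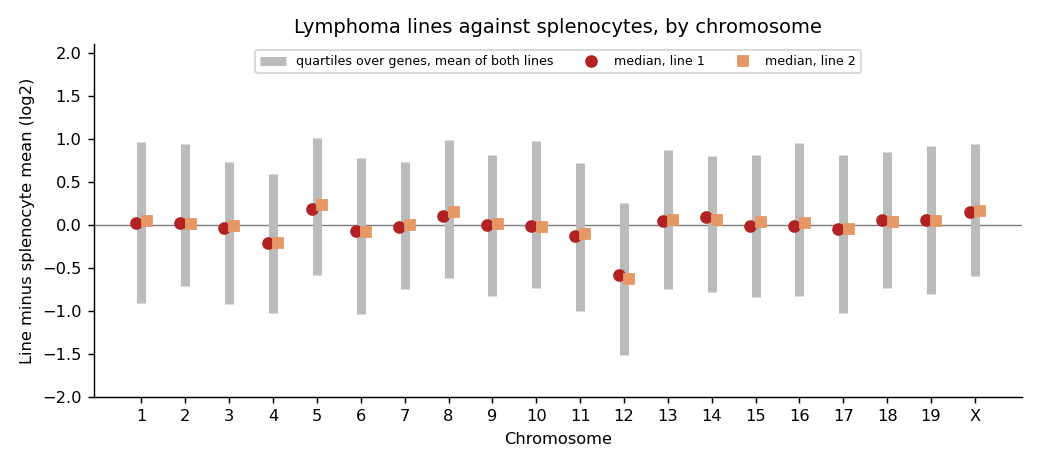
Median difference of each lymphoma line from the splenocyte mean (y axis, log2) for genes of each chromosome (x axis) well above background on all 4 arrays; grey bars run between the quartiles over genes of the mean of both lines. Chromosome 12, without the heavy chain window, has medians of −0.59 (line 1) and −0.63 (line 2), and every other chromosome lies between −0.22 and 0.22 in either line.

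The same signal filter and the same dropped names were applied to each other chromosome, but no stretch was left out there, unlike the heavy chain window. Chromosome 12 had the lowest median of the 20 chromosomes plotted. The other 19 ran from −0.22 on chromosome 4 to 0.21 on chromosome 5, from −0.22 to 0.19 in line 1 alone and from −0.21 to 0.22 in line 2 alone. The share called lower was 52.0% on chromosome 12 and 24.8% to 39.1% on the others, and the share called higher was 15.7% against 25.3% to 37.3%. Chromosome 12 stayed the lowest after quantile normalization and after normexp correction. The values were −0.61 and −0.58, against −0.12 and −0.32 on the next lowest, chromosome 4. With arrays centred on the median the values of chromosomes 12 and 4 were −0.21 and 0.19. With the percentile taken over probes well above background on all arrays they were −0.75 and −0.34. Compared with the main scaling, both of these shift the difference of every gene by the same amount, so they could not change the order of chromosomes. Genes of 1 chromosome are not independent replicates, and no p-value is given for this comparison.

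Along the chromosome the lower levels were spread over most of its length. In 10 Mb windows by mm8 coordinate, the median of the mean difference was below 0 in 11 of 12 windows, and under −0.4 in 8 of 12. That limit was chosen after the values were seen. On the other chromosomes 116 of 250 windows with at least 8 genes were below 0 and 26 of 250 were under −0.4. Their lowest value was −3.16, in the window of chromosome 6 that starts at 60 Mb. In the most centromeric window, 0 to 10 Mb, 23 of 35 genes were called lower and 4 higher, and the medians were −1.12 in line 1 and −0.94 in line 2. The window from 80 to 90 Mb held the most genes, 100, with 63 called lower and 15 higher and medians of −0.84 and −0.77. The window from 20 to 30 Mb, with 15 of 26 genes lower and 3 higher, had medians of −0.90 and −0.83. Only 8 genes lay between 40 and 50 Mb, 4 of them called lower and 1 higher, with medians of −0.81 and −0.68.

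Middle values were found in 5 further windows. From 50 to 60 Mb 21 of 38 genes were called lower and 3 higher, with medians of −0.50 in line 1 and −0.64 in line 2. From 60 to 70 Mb the counts were 7 and 1 of 14 genes, with medians of −0.49 and −0.44, and from 70 to 80 Mb 33 and 15 of 71 genes, with −0.36 and −0.45. From 90 to 100 Mb 7 of 17 genes were lower and 5 higher, with −0.27 and −0.37. From 100 to 110 Mb 36 of 66 genes were lower and 6 higher, with −0.62 and −0.68.

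The window from 30 to 40 Mb stood closest to 0 in both lines. In it 12 of 30 genes were called lower and 4 higher, and the median was −0.01 in either line. The window from 10 to 20 Mb was next in line 2 but not in line 1. There 10 of 27 genes were lower and 9 higher, with medians of −0.40 in line 1 and −0.07 in line 2. Both windows were above 0 in both lines after quantile normalization, with 0.01 and 0.15 from 30 to 40 Mb and 0.10 and 0.21 from 10 to 20 Mb. Without splenocyte replicate 1 the window from 30 to 40 Mb had 0.11 and 0.12, and without splenocyte replicate 2 the window from 10 to 20 Mb had 0.11 in line 2. With window edges moved by 5 Mb all 13 windows were below 0 in both lines. Adjacent genes were only weakly alike: across the 495 neighbouring pairs, with a median gap of 67.9 kb, Pearson's r of their differences was 0.11, a description over genes that share the same 4 arrays.

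**Figure D2:**
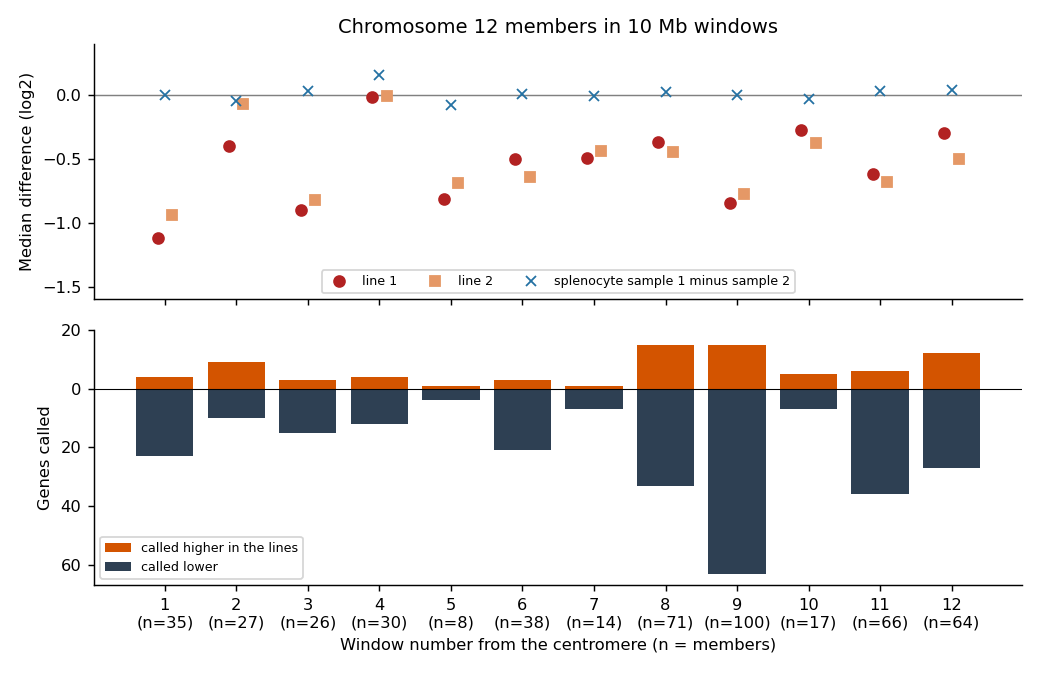
Upper panel: median difference from the splenocyte mean (log2) of line 1 and line 2 in each of 12 windows of 10 Mb, numbered from the centromere, with splenocyte sample 1 minus sample 2 as crosses. Lower panel: genes called higher (upward bars) and lower (downward bars) in the lines; the line medians run from −1.12 to −0.01, and those of windows 2 and 4 move above 0 after quantile normalization.

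The last window, 110 to 120 Mb, is parted by the heavy chain locus, which was left out. Before it, 21 of 55 genes were called lower and 10 higher, with a median difference of −0.32. After it, 6 of 9 genes were called lower and 2 higher, with a median of −1.90. The nearest gene inside the limit on the centromeric side was Tmem121, a membrane protein gene at 113637224 to 113637283. Splenocyte samples 1 and 2 gave 0.17 and 0.11, and lines 1 and 2 gave −4.58 and −4.59. Both lines were far below both splenocyte samples, a difference of −4.72. Just outside the limit, and not counted here, an Igh probe at 113706840 differed by −8.97 and an Igh-VJ558 probe at 113712756 by −0.03.

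On the distal side the nearest gene inside was Zfp386, which encodes a zinc finger protein, at 116507335 to 116507394. Its levels were −0.26 and −0.33 in splenocytes and −2.19 and −2.32 in the lines, a difference of −1.96. Its 4 probes differed from −1.96 to 2.80, and their mean differed by −0.01 (limma adjusted p = 0.980; 0.000715 to 0.980 over the alternatives), so its direction rests on the probe. The nearest probes outside were Igh-VJ558 at 116400367, at −8.92, and LOC619863 at 116107090, at 1.86. Among the 9 distal genes Sp4, a transcription factor of the Sp1 family, differed by −2.98 and Rapgef5, an exchange factor for Rap GTPases, by −2.95. The widest difference among them, −6.13, was that of 2310058N22Rik, a name without a RefSeq match, at 0.04 and −0.02 in the splenocytes and −6.34 and −5.89 in the lines. Ncapg2, a condensin subunit, differed by 2.21 in the other direction, and 3 of these distal genes had both lines above both splenocyte samples.

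**Figure D3:**
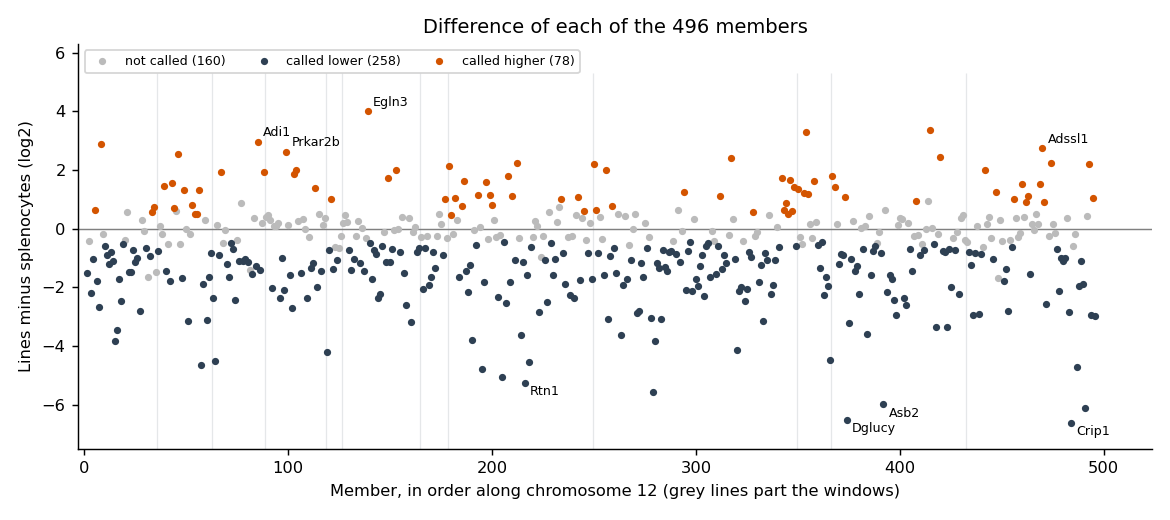
Difference of the lines from the splenocytes (y axis, log2) for each of the 496 genes in order along chromosome 12 (x axis), coloured by call; vertical lines part the 10 Mb windows. Lower calls (258) are found in every window, and the extremes are Crip1 at −6.62 and Egln3 at 4.01.

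At least 16-fold changes were called for 15 genes that fell (3.02%) and 1 that rose (0.202%). Over all genes tested the shares were 4.91% and 2.13%, and over the genes that passed the same signal filter 2.05% and 1.17%. After normexp correction limma called 6 of the 496 genes at least 16-fold lower (1.21%) and none at least 16-fold higher, against 1.18% and 0.604% of the genes that passed the signal filter. The genes described next are the largest changes among the 392 with a RefSeq match, and 3 of the 15 decreases fall outside them: 2310058N22Rik fell 69.8-fold, ENSMUST00000035987 47.8-fold and AK087135 22.4-fold. After normexp correction the fold was over 1.5 times smaller for 15 of the 54 named genes, with the same direction in all 15, and that value is given with each. These 3 names, and the other names without a match given further on, were chosen after their values were seen. Their values are given without normexp correction. Crip1 encodes a small cysteine-rich LIM domain protein and lies at 113601316 to 113601590. Its log2 signal was 4.02 and 4.17 in splenocyte samples 1 and 2 and −2.55 and −2.49 in the lines. The samples of a group lay close together and the groups were far apart, a 98.0-fold decrease with a log2 difference of −6.62 ± 0.15 (SE; limma adjusted p = 0.000109). Dglucy, a mitochondrial D-glutamate cyclase listed on the array as 9030617O03Rik, lies at 101273262 to 101273321. Splenocytes gave 1.41 and 1.21, the lines −5.04 and −5.37. It fell 91.4-fold (−6.51 ± 0.19 (SE; limma adjusted p = 0.000157)), and its 2 probes gave −6.51 and −6.12. With normexp correction it fell 30.5-fold.

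Asb2, a substrate receptor of a cullin ubiquitin ligase, lies at 103722592 to 103722651. Levels were 0.66 and 0.11 in splenocytes and −6.22 and −4.99 in lines 1 and 2. Both lines were lower, line 1 by more, and the mean decrease was 63.5-fold (−5.99 ± 0.48 (SE; limma adjusted p = 0.00114)). Without lymphoma replicate 1 the decrease was 41.3-fold and without lymphoma replicate 2 it was 97.5-fold, and after normexp correction the log2 difference was −4.32. Rtn1, an endoplasmic reticulum membrane protein, lies at 73131218 to 73131277. It was at −0.82 and −0.54 and at −6.21 and −5.64 in the same order, with no overlap and a 38.0-fold decrease. Frmd6, a FERM domain protein linked to Hippo signalling, was at −1.41 and −1.15 and at −5.93 and −6.76, a 33.5-fold decrease in which line 2 was the lower of the lines. After normexp correction the decreases of Rtn1 and Frmd6 were 9.27-fold and 7.52-fold.

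The next 7 decreases among matched genes ran from 17.7-fold to 27.6-fold. Cdkl1, a cyclin-dependent kinase-like kinase, fell 27.6-fold, from −0.60 and −0.26 to −5.30 and −5.13. Tmem121 fell 26.4-fold. Hpcal1, a neuronal calcium sensor family protein, fell 24.9-fold on its brighter probe, a log2 difference of −4.64, while its other probe gave −2.91. Dhrs7, a short-chain dehydrogenase, fell 23.3-fold and Asap2, a GTPase-activating protein for Arf listed as Ddef2, 22.7-fold. Arl4a, an Arf-like GTPase, fell 18.3-fold on its brightest probe, with probes between −4.19 and −1.47. Tgfb3, a ligand of the TGF-beta family, fell 17.7-fold, from 0.28 and 0.68 in the splenocytes to −3.36 and −3.97 in the lines. After normexp correction the decreases of Cdkl1, Tmem121, Hpcal1, Asap2 and Tgfb3 were 10.7-fold, 11.7-fold, 12.5-fold, 8.74-fold and 10.7-fold. With the mean over probes Hpcal1 differed by −3.78 and Arl4a by −3.26. All 12 of these decreases had both lines below both splenocyte samples, as the rule for naming them required.

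The matched genes that moved farthest in each window add 3 decreases. Rhob, a small GTPase, led those of the window from 0 to 10 Mb with −2.79 ± 0.34 (SE; limma adjusted p = 0.00306). The unmatched name TC1663189 differed by −3.82 in that window. Gdap10 led the window from 30 to 40 Mb with −2.70 ± 0.31 (SE; limma adjusted p = 0.00281). Fbxo33, an F-box protein, led the window from 60 to 70 Mb with −2.06 ± 0.15 (SE; limma adjusted p = 0.000858), and its 3 probes lay between −2.06 and −1.80.

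The largest increase was that of Egln3, a prolyl hydroxylase that acts on hypoxia-inducible factor subunits, at 55101592 to 55101651. Its signal was −4.76 and −4.95 in splenocyte samples 1 and 2 and −0.88 and −0.82 in the lines. All 4 values were well above background, both lines were high, and the increase was 16.1-fold (4.01 ± 0.15 (SE; limma adjusted p = 0.000234)). With normexp correction it rose 5.39-fold. Adssl1, which encodes an adenylosuccinate synthase of the purine nucleotide cycle, lies at 113089052 to 113089111. It rose 6.70-fold, from 2.50 and 2.51 to 5.23 and 5.28 (2.75 ± 0.14 (SE; limma adjusted p = 0.000391)). The difference was many times the spread within either group.

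Adi1, an enzyme of the methionine salvage pathway, rose 7.85-fold, from −1.65 and −1.74 to 1.34 and 1.21. Prkar2b, a regulatory subunit of cAMP-dependent protein kinase, rose 6.18-fold, from −0.72 and −0.82 to 1.81 and 1.90. Ncapg2 rose 4.63-fold and Lrr1, a cullin substrate receptor listed as Ppil5, 4.46-fold. Jdp2, a repressor of the AP-1 family listed as Jundm2, rose 5.32-fold, Ak7, an adenylate kinase, 5.41-fold, and D430019H16Rik 10.2-fold. Clba1, listed as BC022687, rose 4.76-fold and Plekhh1 4.65-fold from low signals, and after normexp correction they differed by 0.78 (limma adjusted p = 0.0709) and 0.75 (0.0635), with lowest adjusted p-values over the alternatives of 0.000843 and 0.000474. Among names without a match LOC671973 rose 7.49-fold, NAP029330-1 5.81-fold and CJ042244 4.75-fold. Igkv14-111 rose 9.75-fold (3.29), but RefSeq places that kappa variable segment on chromosome 6, so its probe's place on chromosome 12 comes from the array annotation alone. Its increase was 3.24-fold after normexp correction.

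**Figure D4:**
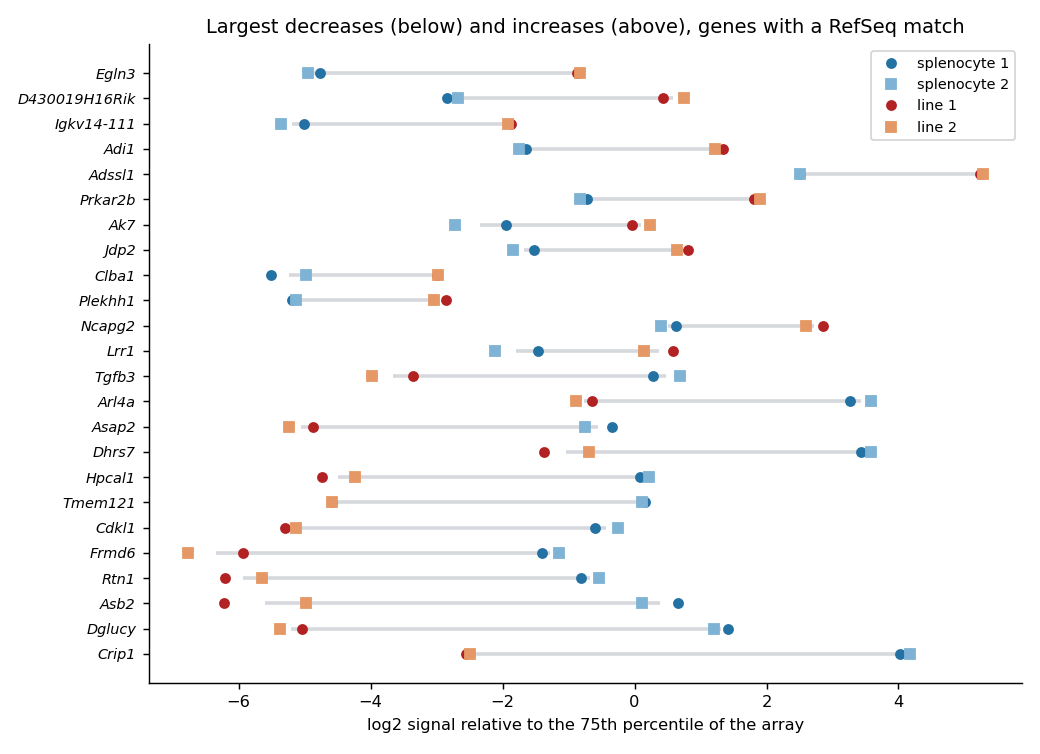
Log2 signal relative to each array's 75th percentile (x axis) in each of the 4 samples for the 12 largest increases (upper rows) and 12 largest decreases (lower rows) among the genes with a RefSeq match. Lines join the group means; the groups do not overlap for any of the 24 genes, as the rule that chose them required, and Crip1 has the widest gap, 98.0-fold.

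Lists of chromosome 12 genes were set up by role, with earlier results of these data known, and 197 of the 496 genes were in one. Each list is described by its counts and its median, beside a median of −0.62 over the 496 genes and −0.05 over all genes tested. Of the 496 genes 15.7% were called higher and 52.0% lower. Of all genes that passed the same signal filter 31.4% were called higher and 31.0% lower. Cell division and DNA repair genes went both ways, and 26 of 27 listed were measured. Of these, 8 rose (30.8%, near the share over the whole array), 10 fell (38.5%) and 8 did not pass, with a median difference of 0.16. Ncapg2 was at 0.63 and 0.40 in the splenocytes and 2.85 and 2.60 in the lines (2.21 ± 0.18 (SE; limma adjusted p = 0.00113)). Rad51b, a recombination protein listed as Rad51l1, rose 3.98-fold, and Gen1, a Holliday junction resolvase, 2.72-fold. The 3 Gen1 probes lay between 0.53 and 1.45. Nin, a centrosomal anchoring protein, fell 5.01-fold. Ift43, an intraflagellar transport subunit, fell 4.38-fold, but leaving out splenocyte replicate 2 ended the call (−1.86; limma adjusted p = 0.0583; 0.00671 to 0.0583 over the alternatives). The list's median was 0.57 with arrays centred on the median.

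Metabolic and mitochondrial genes did so too. Of 36 measured of 44 listed, 11 rose (30.6%, again near the share over the whole array), 17 fell (47.2%) and 8 did not pass. The median of −0.17 became 0.23 with arrays centred on the median. Adi1 and Dhrs7 marked the ends at 2.97 and −4.54. Nampt, the rate-limiting enzyme of NAD salvage, rose 3.66-fold (1.87 ± 0.19 (SE; limma adjusted p = 0.00186)), and Odc1, ornithine decarboxylase, 2.48-fold. Sptlc2, a subunit of serine palmitoyltransferase, fell 4.64-fold, with its 3 probes between −2.21 and −0.66 and their mean at −1.53, and Slc25a29, a mitochondrial amino acid carrier, 4.70-fold. Gen1, Nampt, Odc1 and the genes Mok, Ahr, Ddx1, Klc1, Tcl1, Pld4 and Adam17 named further on lie outside the rule for named genes and were chosen after their values were seen.

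Of the genes of RNA processing and transcription all 32 listed were measured. Of these, 18 fell (56.2%, near the 52.0% of the 496 genes), 2 rose and 12 did not pass, with a median of −0.60. Zfp36l1, which promotes decay of AU-rich mRNAs, was at 6.36 and 6.59 in the splenocytes and 3.39 and 3.43 in the lines, an 8.36-fold decrease. Snapc1, a subunit of the small nuclear RNA activating complex, fell 7.09-fold, and Ddx24, an RNA helicase, 3.01-fold on its brighter probe. The other Ddx24 probe gave −0.49 and the mean over its probes −1.04. Cbll1, an E3 ubiquitin ligase, fell 4.04-fold on its brighter probe, while the other probe gave 0.20 and the mean over probes −0.90. Ddx1, an RNA helicase, was among the 2 that rose, at 2.92-fold. With arrays centred on the median the list held 8 genes called lower and 6 higher.

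Chromatin proteins and transcription factors had a lower median, −1.09 over 22 measured of 33 listed, with 15 that fell, 2 that rose and 5 that did not pass. Bcl11b, a factor of T lymphocyte development, was at −2.55 and −3.05 in the splenocytes and −6.09 and −6.24 in the lines, a 10.3-fold decrease. After normexp correction it was 3.63-fold. Sp4 was at −0.84 and −0.85 and −3.79 and −3.85, a 7.87-fold decrease, and Baz1a, a subunit of ISWI chromatin remodelling complexes, fell 4.72-fold. Jdp2 and Ahr, the aryl hydrocarbon receptor, were the 2 that rose, by 5.32-fold and 2.64-fold.

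Signalling genes of the G protein, kinase and phosphatase classes had 22 that fell, 3 that rose and 8 that did not pass, of 33 measured of 42 listed, and a median of −0.74. Rin3, an exchange factor for Rab5 GTPases, was at 1.78 and 1.73 in the splenocytes and −1.76 and −1.89 in the lines, a difference of −3.58 ± 0.14 (SE; limma adjusted p = 0.000259). Ccdc88c, a Dishevelled-binding protein listed as 0610010D24Rik, fell 9.24-fold, Rapgef5 7.71-fold and Rhob 6.90-fold. The 3 that rose were Prkar2b, Mok, a MAP kinase-related kinase, at 4.05-fold, and Akap5, an anchoring protein of cAMP-dependent kinase, at 2.02-fold.

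Membrane traffic and lysosome genes had 20 that fell, 2 that rose and 10 that did not pass, of 32 measured of 36 listed, with a median of −0.80. Itsn2, an endocytic scaffold, fell 5.47-fold and Esyt2, a tether between endoplasmic reticulum and plasma membrane listed as D12Ertd551e, 3.73-fold. Esyt2 fell 2.39-fold with normexp correction. Tmed8 fell 3.50-fold and Zfyve26, a protein of lysosome reformation, 3.00-fold. Klc1, a kinesin light chain, rose 2.89-fold on its brighter probe, a difference of 1.53, while its other probe gave 0.77. With arrays centred on the median, 12 genes of this list were called lower and 6 higher, and 13 and 4 of both the chromatin and the signalling list.

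Among immune and B cell genes limma called 10 lower, none higher and 5 in neither direction, of 15 measured of 27 listed, with 11 at an unadjusted p under 0.05. The median was −1.97, the lowest of these lists. With arrays centred on the median 8 were called lower and 1 higher. Crip1, Asb2 and Tmem121 led the decreases. The list's median and counts include them, and the genes were put in lists with earlier results of these data known. Ifi27l2a, an interferon-induced gene listed as Ifi27, was at 5.43 and 5.52 in the splenocytes and 2.56 and 2.54 in the lines, a 7.61-fold decrease on which its 3 probes differed little, from −2.93 to −2.89. Sdc1, a surface proteoglycan of plasma cells, Adam17, Pld4 and Tcl1 were among the 5 not called, with differences of −1.64, −0.48, −0.23 and 0.00. Of the 8 B cell markers 6 were called lower, with a summed level of 9.55 to 9.89 in the splenocytes and 8.75 to 8.78 in the lines. Markers of other cells were called in both directions in the same comparison. Over all genes tested 32.6% were called lower and 30.6% higher, and counts over so few markers are to be read beside these shares. Of 8 markers tested of macrophages, monocytes and neutrophils, 7 were called lower and 1, Adgre1, higher. Lyz1, Lyz2 and S100a8 were well above background in both splenocyte samples and in neither line. The summed level of that marker list was 3.40 to 3.99 in the splenocytes and 5.15 to 5.16 in the lines on the log2 scale, and Adgre1 makes up nearly all of the latter. Without Adgre1 the sums were 3.15 to 3.79 and −3.64 to −3.43. Of 7 T cell markers 3 were lower and 2 higher, with sums of 2.44 to 2.86 and 3.03 to 3.26, or 2.37 to 2.80 and 1.63 to 1.77 without Cd3g, and Cd8a was well above background in neither line. Of 4 erythroid markers 2 were lower, with sums of 2.52 to 2.53 and −0.08 to 1.28. Of 4 stromal and endothelial markers 2 were higher and 1, Pecam1, lower, with sums of 0.65 to 0.68 and −1.29 to −1.23. Without Pecam1 the sums were −2.79 to −1.62 and −2.04 to −1.98, so the groups overlapped. The part of such cells in these results was not tested.

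Of 8 genes listed for the imprinted cluster between Dlk1 and Dio3 and its flank, 1 was measured on all arrays and none lying between these genes. It was Wdr25, centromeric of Dlk1 in RefSeq, with −2.76 and −2.67 in splenocytes and −2.85 and −3.34 in the lines. The difference was −0.38 ± 0.22 (SE; limma adjusted p = 0.194) and became 0.029 with arrays centred on the median (limma adjusted p = 0.932). Without lymphoma replicate 1, which leaves 1 line array, the difference was −0.63. The 299 genes in no list had 146 called lower, 50 higher and 103 not called, with a median of −0.52.

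**Figure D5:**
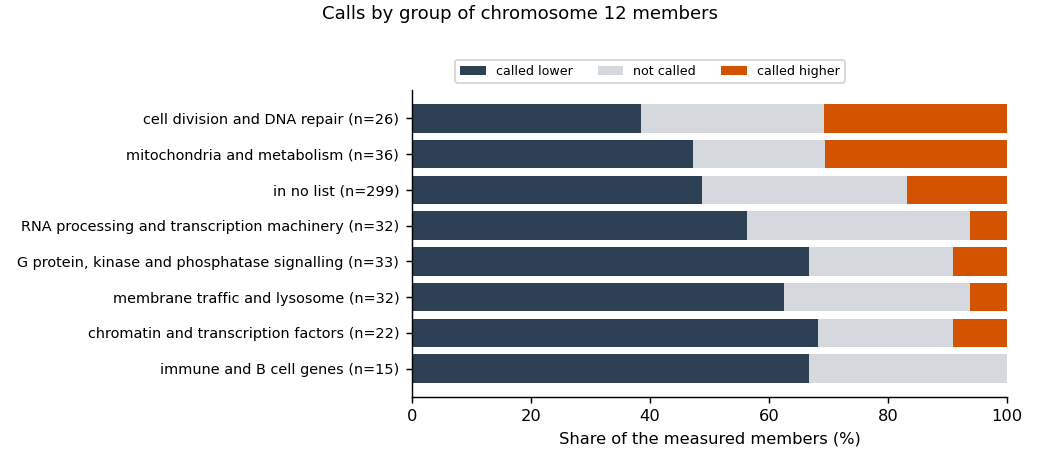
Share of the measured chromosome 12 genes of each role (x axis, percent) called lower, not called or called higher in the lines, with the number of genes beside each name. The share called higher is widest for cell division and DNA repair (8 of 26) and metabolism (11 of 36) and is 0 of 15 for immune genes; with arrays centred on the median these become 11, 15 and 1 genes.

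Genes that differed widely between the lines were about as rare here as among bright genes over the whole array. The lines were at least 2-fold apart for 19 of the 496 genes, against 6.57% of all genes tested and 3.87% of the bright ones. The splenocyte samples were that far apart for 5 genes, against 3.74% and 1.36%. Each line has 1 array, so these differences carry no test. Of the 19 genes, 11 were among the 104 without a RefSeq match, 8 were matched to chromosome 12, and 4 genes were that far apart after normexp correction. The widest gaps were those of the unmatched names AK035013 and NAP071351-1, at −2.15 and −2.14, line 1 minus line 2. Among matched genes Asb2, Iah1 and 5830428M24Rik were called against the splenocytes and differed between the lines by −1.24, −1.24 and −1.22, line 1 minus line 2. Iah1, an esterase, was at −0.35 and 0.30 in the splenocytes and 1.29 and 2.52 in lines 1 and 2, a 3.80-fold increase. Its call was lost without splenocyte replicate 1 (1.60; limma adjusted p = 0.0964) and without lymphoma replicate 2 (1.31; 0.0504) and with no filter on dim probes (1.93; 0.0566), the lowest over the alternatives being 0.00611, and without lymphoma replicate 1 its difference was 2.55. 5830428M24Rik was at 2.89 and 2.80 and −1.56 and −0.34, a 13.8-fold decrease that was 21.1-fold without lymphoma replicate 2 and 9.07-fold without lymphoma replicate 1.

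The other 3 of the 6 matched genes with the widest gaps between lines were not called against the splenocytes. Colec11, a collectin, was at −3.93 and −4.38 in the splenocytes and −6.53 and −4.58 in the lines, so that line 1 alone stood apart, by −2.38 against −0.42 in line 2. Sdc1 was at −0.77 and −0.15 and −2.86 and −1.34, with both lines lower and line 1 the lowest (−1.64 ± 0.57 (SE; limma adjusted p = 0.0642)). Without lymphoma replicate 2 both were called, Colec11 at −2.38 (limma adjusted p = 0.00816) and Sdc1 at −2.40 (0.0124). Both were called after normexp correction too, at −0.87 (limma adjusted p = 0.0226) and −1.42 (0.0353), and Sdc1 with a replicate block (−1.64; 0.0154). Without lymphoma replicate 1 they differed by −0.42 and −0.88. Over the alternatives their limma adjusted p ran from 0.00816 to 0.335 and from 0.0124 to 0.201. Kif26a, an atypical kinesin, was at −4.89 and −5.07 and −3.74 and −5.20, with line 1 above and line 2 below both splenocyte samples. It differed by 1.23 without lymphoma replicate 2 and by −0.22 without lymphoma replicate 1. Each of these fits leaves 1 line array, so no call is read from it.

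The genes that missed the signal filter on some arrays were counted apart. Of the 94 gene names well above background on 2 or 3 arrays, 38 were so in both splenocyte samples and neither line, 16 in both lines and neither splenocyte sample, and 40 in other patterns. The fit across all genes called 46 of these 94 lower and 19 higher, values that rest in part on signals below background. Of the 18314 genes tested over the whole array, 5971 were called lower and 5609 higher. Of the 15241 well above background on every array, 4719 were called lower and 4779 higher. Tested genes that missed this filter, wherever they lie, were thus also called lower more often than higher.

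Of the 496 genes, 392 could be matched to RefSeq, 390 of them on chromosome 12. The other 2 were Igkv14-111 and Mpc1, a mitochondrial pyruvate carrier subunit placed on chromosome 17. The 104 unmatched names had a median difference of −0.79 and the 390 matched ones of −0.58. Several probes well above background were available for 186 genes. For 46 of these the probes disagreed in sign, and for 6, among them Cep128, Pdia6, Atl1, Syne2, Synj2bp and Zfp386, probes differed by at least 1 in both directions. Which exon a probe lies in is not given in the annotation used here, and 50 probes spanned more than 60 bases of the genome.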

How the data were processed

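The deposited files hold, for each array, the processed signal as an intensity, background-subtracted and detrended by Agilent Feature Extraction (9.5.1.1 per the file headers, 9.5 per the submitters' processing notes), with no scaling between arrays. Raw spot means and local backgrounds are deposited as intensity too, and further columns, per the file headers, flag each spot with 0 or 1 for background, saturation and outliers. Array coordinates are mm8, and all 4 arrays lay on the same slide. The authors' series matrix holds that intensity multiplied by a constant for each array, read from the values, and this scaling is not stated.

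Flagged spots (403) were left out and spots of a probe averaged. Values are log2 of the deposited processed signal minus log2 of each array's 75th percentile. Genes with a probe well above background on at least 2 arrays (18314 of 27661 names) were tested with limma 3.58.1 (lmFit, eBayes; two-sided) in R 4.3.3 with version 1.17.8 of data.table, 2 lines against 2 splenocyte samples, with Benjamini-Hochberg adjustment over all of them and calls at 0.05. The fit was tested on simulated data. Deviations of arrays with the same replicate number correlated at 0.01, so numbers were not taken to pair samples.

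Named genes are, among those matched to a RefSeq symbol, the 12 largest called increases and decreases without overlap, the widest difference per window, the 6 widest between lines, those nearest the heavy chain window, and up to 4 per list by size. Members and lists were chosen with earlier results of these data known. Alternatives changed the scaling, background correction, probe choice, filters, pairing, windows and samples.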

Additional observations from a re-analysis of the deposited data

Results flagged for a closer look

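Kif26a stood out because the lines lay on opposite sides of both splenocyte samples: line 1 was higher than line 2 by 1.46 on the log2 scale, line 1 above both splenocyte samples and line 2 below both. Each line has 1 array, so the difference between the lines was not tested. Such a pattern was found for 12 of the 496 chromosome 12 genes (2.42%), 8 with line 1 and 4 with line 2 on top, and for 3.88% of the 15241 genes well above background on all arrays.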

How the results depend on the processing

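The counts of 258 lower and 78 higher genes kept their direction under every alternative run. Leaving out 1 replicate gave 183 to 241 lower, 53 to 76 higher, and a median difference of −0.63 to −0.59. With a replicate block there were 241 lower and 69 higher; the block changed no other call among the named genes than that of Sdc1 (−1.64), which it gained. Centring arrays on the median gave 127 higher genes and a median of −0.21. The median was −0.75 with the percentile over bright probes and −0.58 after normexp correction. In alternatives chosen after seeing the data it was −0.58 over genes RefSeq places on chromosome 12 and −0.59 with the genes dropped by name put back. The 19 genes at least 2-fold apart between the lines became 4 after normexp correction, 34 with genes bright on 2 arrays and 8 with RefSeq genes on chromosome 12. Wdr25 reversed with arrays centred on the median (0.029), and Kif26a after normexp correction (−0.15) and without lymphoma replicate 1 (its values without 1 replicate ran from −0.22 to 1.23). The cause was not tested. Of 702 values of the 54 named genes, 685 kept direction and side of the threshold, 7 lost a call and 7 gained one. Of 264 window medians, 112 moved by more than the SD of the lines and 20 changed sign. Besides centring on the median, sign changes fell in the windows from 10 to 20 and 30 to 40 Mb. The lone sample left when a replicate is omitted is assumed to vary like the other group.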
